A study of Caenorhabditis elegans with 8 samples.

Results

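The cuticlin and cuticlin-like genes of *Caenorhabditis elegans* were taken as every gene whose symbol begins with *cut-* or *cutl-*. They comprised 35 of the 46926 genes in the count table, 6 named *cut* and 29 named *cutl*. All 35 are annotated as protein-coding in the WBcel235 genome and their coordinates were the same in annotation release 115. They lie on all 6 chromosomes, with 9 on chromosome II, 7 on I, 5 each on IV, V and X, and 4 on III. Their longest coding sequences encode 215 to 969 residues (median 445) in 2 to 16 exons.

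Cuticlins were first defined as the part of the nematode cuticle that stays insoluble after collagens have been extracted with detergent and reducing agent. Most are transmembrane proteins with a zona pellucida (ZP) domain, through which they assemble into extracellular filaments at the apical surface of epidermal and seam cells. Several are needed for alae, the longitudinal ridges that seam cells lay down in some larval stages and in the adult, and a new cuticle is made at every molt. CUT-2 differs from this pattern, since it has no ZP domain and is built into the cuticle by tyrosine cross-links that peroxidases can form.

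Polyadenylated RNA of whole animals was sequenced from 4 libraries labelled *smrd-1* null and 4 labelled as control, the non-transgenic (non-Tg) N2 wild-type strain. The *smrd-1* null strain carries a CRISPR-Cas9 deletion in *smrd-1*, the worm counterpart of the chromatin remodeler gene SMARCAD1, and neither strain carried a tau transgene. Both strains were kept at 20 °C on agar plates with OP50 bacteria, and the extraction protocol and the study's methods give the L4 larval stage, while the design text of the series describes adults. No source says that the libraries of a group came from separate cultures, so p-values measure the spread between these libraries.

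Total counts ranged from 74704022 to 78008833 per library, so that 3 counts correspond to 0.0371 to 0.0422 CPM, the level of a gene relative to all counts of its library, scaled by edgeR's TMM factors. Libraries with replicate numbers 1 and 2 stood apart from those numbered 3 and 4 in both groups. Across genes, deviations from the group means correlated at 0.221 to 0.516 between groups within these replicate sets and at -0.565 to -0.188 across them, as a description of these libraries. As deviations from a group mean cancel out within that group, positive values within the sets bring negative ones across them. The division is not in the labels and was read from the values. The gene *smrd-1* itself had 6369, 6252, 6874 and 6330 counts in the libraries labelled *smrd-1* null, against 3638, 2997, 3876 and 4073 in non-Tg libraries. A count over the whole gene does not separate deleted from remaining exons, so it does not check the labels, and groups are therefore named as labelled. RNA of *col-19*, which encodes a collagen of the adult cuticle, was present in every library. It was at 456, 543, 1545 and 1179 CPM in libraries labelled *smrd-1* null and at 435, 228, 631 and 324 CPM in non-Tg libraries. These values do not decide between the L4 and adult stages that the sources name.

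*cut-2* (chromosome V, 13414949 to 13416064, plus strand) was by far the most abundant member, at 311 CPM per kb of exonic length averaged over the 8 libraries. Its mean was 19.6 times that of the second member, *cutl-15* at 15.9 CPM per kb, and it held 60.3% of the CPM summed over all members. *cut-4* followed at 12.7 CPM per kb and *cutl-18* at 10.8 CPM per kb. Of the other members, 20 had between 1 and 10 CPM per kb and 11 had less than 1. The low end was *cut-1* at 0.0156 CPM per kb. Exons of 17 members overlap those of another annotated gene, which matters because strand was not used in counting and reads that overlapped more than 1 gene were left out.

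**Figure D1:**
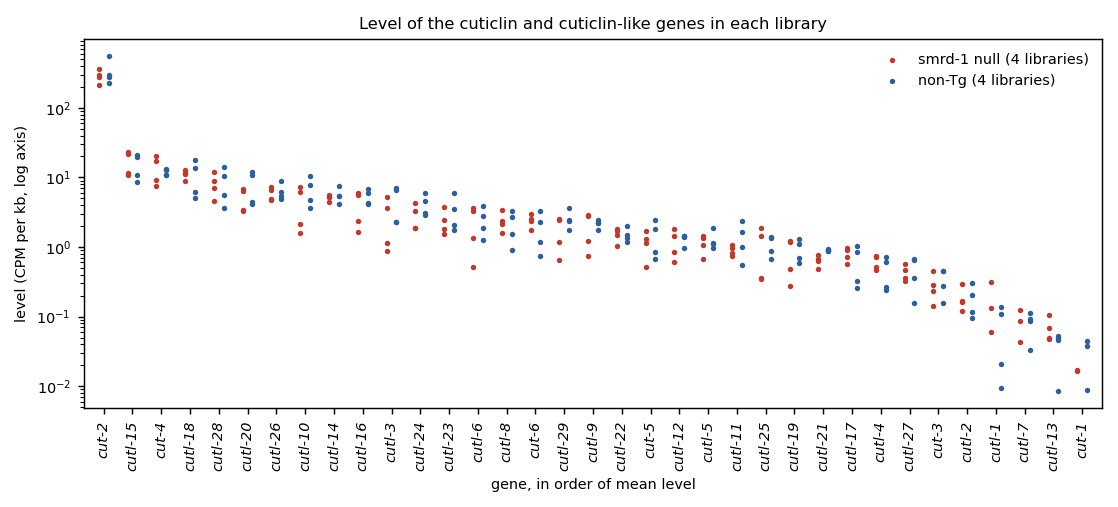
Level of each of the 35 cuticlin and cuticlin-like genes in each library, in CPM per kb on a log axis, with genes in order of their mean level and libraries labelled smrd-1 null drawn left of non-Tg libraries; libraries at 0 are not drawn. *cut-2* averages 311 CPM per kb, 19.6 times the next gene, and for nearly every gene the points of both groups share a range.

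The comparison of the labelled groups asked whether the *smrd-1* deletion goes with a change in these genes. No member was called. At an adjusted p of at most 0.05 in edgeR's quasi-likelihood test, 0 of the 33 members that passed the expression filter were higher or lower in the libraries labelled *smrd-1* null, where 0.155% of all 16808 tested genes were called. The smallest adjusted p of a member in edgeR was 0.639. An unadjusted p under 0.05 was reached by 1 member, *cutl-21*, against 7.74% of all tested genes. With a replicate block in edgeR that count was 7, all lower (*cutl-3*, *cutl-10*, *cutl-16*, *cutl-20*, *cutl-21*, *cutl-24* and *cutl-29*). Of all tested genes 22.99% had such a p in either direction, and the share of lower genes alone is not given. The smallest adjusted p of a member with the block was 0.0944. DESeq2 called 0 of 35 members at an adjusted p of at most 0.05, where it called 0.992% of genes, and 1 member had an unadjusted p under 0.05 in it, against 7.38% of genes.

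Among the 33 tested members, 10 had a higher and 23 a lower fitted level in the libraries labelled *smrd-1* null. Their median log2 fold change was -0.16, with a range of -0.74 to 0.88, and the median over all tested genes was -0.01, with 51.4% of genes below 0. With the 2 untested members, *cut-1* and *cutl-13*, all 35 are accounted for. The groups did not overlap in CPM for 1 of 33 members, against 5.20% of all tested genes. As the median deviation of the members from their own means on the log2 scale, the family stood at 0.18, 0.15, -0.32 and 0.02 in libraries labelled *smrd-1* null 1 to 4, against -0.14, 0.22, -0.01 and 0.30 in non-Tg 1 to 4. The lowest and the highest of these values came from different groups, and the values between them were mixed.

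**Figure D2:**
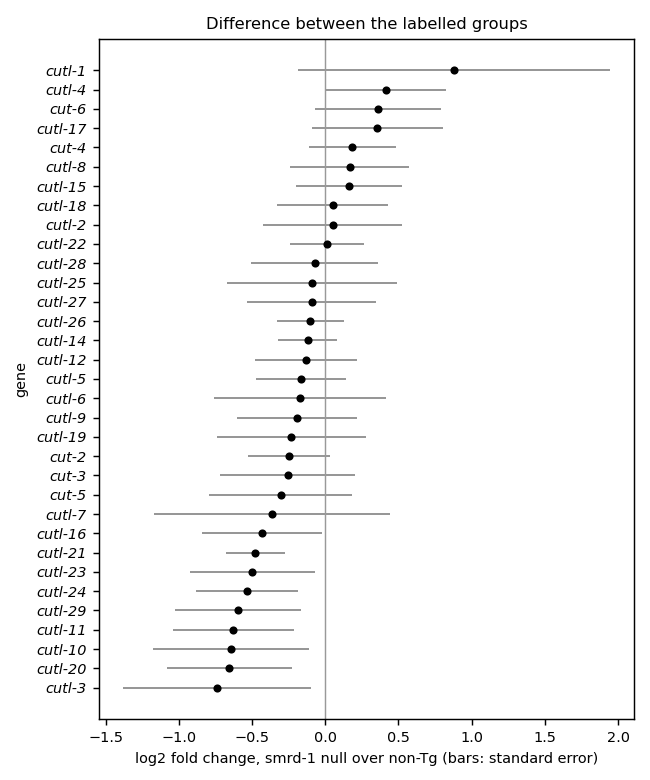
Log2 fold change of the 33 tested cuticlin and cuticlin-like genes, smrd-1 null over non-Tg, with bars of 1 standard error from edgeR. The values run from -0.74 (*cutl-3*) to 0.88 (*cutl-1*), with 23 below 0, and none was called.

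The classical cuticlins *cut-1* to *cut-6* include the structural components of alae. *cut-1* (chromosome II, 11269122 to 11271660, plus strand), needed for the alae of dauer larvae, was close to undetected, with 0, 0, 2 and 2 counts in libraries labelled *smrd-1* null and 5, 4, 1 and 0 in non-Tg libraries. These numbers lie around the limit of 3 counts, and no fold change is given. *cut-3* (chromosome II, 8445169 to 8446831, minus strand), needed for the alae of L1 larvae, was also low, at 0.358, 0.301, 0.180 and 0.572 CPM in libraries labelled *smrd-1* null and 0.350, 0.197, 0.571 and 0.568 CPM in non-Tg libraries. Its log2 fold change was -0.26 ± 0.464 (SE) and lay between -0.61 and -0.049 with single libraries left out. *cut-5* (chromosome X, 10333858 to 10338200, minus strand), needed in both L1 and dauer larvae, was at 0.702, 1.75, 1.54 and 2.31 CPM in libraries labelled *smrd-1* null and 1.14, 0.913, 2.43 and 3.31 CPM in non-Tg libraries. The lowest of these 8 values was in replicate 1 of the *smrd-1* null label and the highest in non-Tg replicate 4, and the log2 fold change of *cut-5* was -0.31 ± 0.486 (SE), or 0.077 without that non-Tg library. The genes for larval alae were thus present at low levels and spread widely within groups, with a highest value that was 3.18 times (*cut-3*) and 3.30 times (*cut-5*) the lowest in libraries labelled *smrd-1* null, and 2.90 times and 3.63 times in non-Tg.

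*cut-2*, the tyrosine-cross-linked cuticlin, had 257, 195, 273 and 331 CPM in libraries labelled *smrd-1* null, against 209, 511, 254 and 278 CPM in non-Tg libraries. It averaged 264 ± 56.0 CPM in libraries labelled *smrd-1* null and 313 ± 135 CPM in non-Tg (SD, n = 4 each). Non-Tg replicate 2 lay above all other libraries, and the other 7 shared a range. The log2 fold change of -0.25 ± 0.281 (SE; edgeR adjusted p = 0.785) became 0.094 without that library. *cut-4* (chromosome II, 10436136 to 10440087, plus strand) had 16.5, 13.7, 30.8 and 36.0 CPM in libraries labelled *smrd-1* null, spanning the values of 19.1, 23.8, 22.8 and 19.6 CPM in non-Tg libraries on both sides. Replicates 1 and 2 of the *smrd-1* null label were below every non-Tg library and replicates 3 and 4 above every one, so that the SD was 10.9 CPM in the *smrd-1* null label and 2.29 CPM in non-Tg (n = 4 each). Its log2 fold change was 0.19 ± 0.295 (SE), or -0.076 without *smrd-1* null replicate 4.

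*cut-6* (chromosome III, 10911460 to 10916665, plus strand), another gene of dauer alae, was at 4.62, 5.60, 3.24 and 4.46 CPM in libraries labelled *smrd-1* null and at 2.16, 1.39, 4.31 and 6.07 CPM in non-Tg libraries. Within non-Tg, replicates 1 and 2 were the lowest of the 8 libraries and replicate 4 was the highest, so the ranges overlapped. The log2 fold change was 0.36 ± 0.429 (SE), with an adjusted p of 0.793 in edgeR, and it lay between 0.098 and 0.77 with single libraries left out.

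Besides *cut-2* and *cut-4*, the 6 most abundant members per kb were the cuticlin-like genes *cutl-15*, *cutl-18*, *cutl-28* and *cutl-20*. The *cutl* genes carry their name for their similarity to cuticlins. *cutl-15* (chromosome II, 8942668 to 8947688, minus strand) had 15.8, 17.2, 32.1 and 34.2 CPM in libraries labelled *smrd-1* null and 12.6, 16.3, 28.9 and 30.95 CPM in non-Tg libraries. In both groups replicates 3 and 4 were about as high as each other and well above replicates 1 and 2. Its log2 fold change of 0.16 ± 0.360 (SE) was small beside that division, and it became -0.039 without *smrd-1* null replicate 4 and -0.031 without non-Tg replicate 1.

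*cutl-18* (chromosome V, 11313362 to 11316901, minus strand) had 27.9, 31.8, 22.1 and 29.2 CPM in libraries labelled *smrd-1* null and 15.6, 12.6, 34.4 and 44.7 CPM in non-Tg libraries. The *smrd-1* null values all lay between the lower and the upper pair of non-Tg libraries, with means of 27.8 ± 4.12 CPM in libraries labelled *smrd-1* null and 26.8 ± 15.3 CPM in non-Tg libraries (SD, n = 4 each). *cutl-28* (chromosome IV, 684497 to 688340, plus strand) had 20.7, 27.1, 10.7 and 15.9 CPM in libraries labelled *smrd-1* null and 12.6, 8.46, 24.2 and 32.8 CPM in non-Tg libraries. Here the libraries labelled *smrd-1* null were higher in replicates 1 and 2 and the non-Tg libraries in replicates 3 and 4. The log2 fold changes over all 8 libraries were 0.05 ± 0.377 for *cutl-18* and -0.07 ± 0.435 for *cutl-28* (SE). Both turned in sign when single libraries were left out, with *cutl-18* at -0.023 without *smrd-1* null replicate 2, -0.14 without non-Tg replicate 1 and -0.18 without non-Tg replicate 2. For *cutl-28* the value was 0.11 without *smrd-1* null replicate 3, 0.031 without non-Tg replicate 3 and 0.30 without non-Tg replicate 4. *cutl-28* lies 14202 bases from *cutl-26*, start to start. *cutl-26* (chromosome IV, 698699 to 707735, minus strand) ranged from 7.69 to 12.1 CPM in libraries labelled *smrd-1* null and from 7.96 to 14.6 CPM in non-Tg libraries.

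The most negative log2 fold changes belonged to *cutl-3*, *cutl-20*, *cutl-10*, *cutl-11* and *cutl-29*. *cutl-3* (chromosome X, 14994752 to 14999201, minus strand) had 8.56, 5.97, 1.44 and 1.84 CPM in libraries labelled *smrd-1* null and 10.6, 11.6, 3.69 and 3.73 CPM in non-Tg libraries, a log2 fold change of -0.74 ± 0.641 (SE). At each replicate number the library labelled *smrd-1* null was the lower one, yet replicates 1 and 2 of that label were above replicates 3 and 4 of non-Tg. *cutl-10* (chromosome I, 11294576 to 11297206, minus strand) had the same order, with 9.47, 8.06, 2.05 and 2.83 CPM in libraries labelled *smrd-1* null and 10.3, 13.6, 4.79 and 6.26 CPM in non-Tg libraries. Its log2 fold change was -0.64 ± 0.533 (SE). *cutl-20* (chromosome I, 963692 to 969457, minus strand) had 8.82, 8.21, 4.29 and 4.26 CPM in libraries labelled *smrd-1* null and 14.0, 15.3, 5.61 and 5.30 CPM in non-Tg libraries, a log2 fold change of -0.65 ± 0.428 (SE). Its count is uncertain to the extent that its exons share 221 bases with *shc-1* on the same strand.

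*cutl-11* (chromosome X, 11648188 to 11650851, minus strand) had 1.27, 1.42, 1.10 and 0.996 CPM in libraries labelled *smrd-1* null and 2.21, 3.15, 0.727 and 1.33 CPM in non-Tg libraries. Non-Tg replicates 1 and 2 were the highest and non-Tg replicate 3 was the lowest of the 8, and the log2 fold change was -0.63 ± 0.414 (SE). *cutl-29* (chromosome X, 8262420 to 8271021, minus strand) had 3.55, 3.39, 0.925 and 1.64 CPM in libraries labelled *smrd-1* null and 5.14, 3.41, 2.52 and 3.32 CPM in non-Tg libraries, a log2 fold change of -0.60 ± 0.430 (SE). The adjusted p-values of these 5 genes in edgeR lay between 0.703 and 0.736. Leaving out single libraries kept all 5 below 0 but moved each by over 1.5 times, within ranges of -1.27 to -0.44 for *cutl-3*, -0.87 to -0.38 for *cutl-20*, -1.02 to -0.34 for *cutl-10*, -0.91 to -0.25 for *cutl-11* and -0.86 to -0.34 for *cutl-29*.

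*cutl-21* (chromosome X, 1004337 to 1009422, plus strand) was the only tested member whose groups did not overlap. It had 1.35, 1.56, 0.976 and 1.27 CPM in libraries labelled *smrd-1* null, all below the 1.86, 1.74, 1.78 and 1.80 CPM of non-Tg libraries. It averaged 1.29 ± 0.242 CPM in libraries labelled *smrd-1* null and 1.80 ± 0.0475 CPM in non-Tg libraries (SD, n = 4 each), whose highest value was 1.06 times the lowest, the smallest such ratio in any group of a member. The log2 fold change was -0.48 ± 0.200 (SE), with an adjusted p of 0.639 in edgeR and 0.293 in DESeq2.

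At the other end, *cutl-1* (chromosome V, 13403961 to 13406114, minus strand), which begins 10988 bases from *cut-2*, had the largest fitted log2 fold change, 0.88 ± 1.07 (SE). It rested on few reads, with 0, 6, 14 and 35 counts in libraries labelled *smrd-1* null and 14, 2, 1 and 12 in non-Tg libraries. Without *smrd-1* null replicate 4 the log2 fold change of *cutl-1* was -0.11. *cutl-4* (chromosome V, 17733546 to 17739901, minus strand) had 0.798, 0.712, 1.13 and 1.10 CPM in libraries labelled *smrd-1* null and 0.403, 1.10, 0.364 and 0.939 CPM in non-Tg libraries, where replicates 2 and 4 were within the range of the *smrd-1* null label and replicates 1 and 3 were below it. Its log2 fold change was 0.42 ± 0.407 (SE). *cutl-17* (chromosome IV, 9449125 to 9457500, minus strand) had 2.44, 3.24, 1.93 and 3.06 CPM in libraries labelled *smrd-1* null and 0.874, 1.11, 2.82 and 3.53 CPM in non-Tg libraries, a log2 fold change of 0.35 ± 0.448 (SE). The low pair of *cutl-17* was again non-Tg replicates 1 and 2. With single libraries left out the log2 fold change lay between 0.19 and 0.71 for *cutl-4* and between 0.099 and 0.73 for *cutl-17*.

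The other 16 tested members had log2 fold changes between -0.53 (*cutl-24*) and 0.17 (*cutl-8*), and the values of 5 of them (*cutl-24*, *cutl-16*, *cutl-25*, *cutl-14* and *cutl-7*) are given here, chosen, like those of *cutl-6*, *cutl-9* and *cutl-26*, after they were seen. *cutl-24* (chromosome IV, 165077 to 169980, plus strand) had 8.78, 6.69, 3.84 and 3.77 CPM in libraries labelled *smrd-1* null and 9.14, 12.2, 5.78 and 6.23 CPM in non-Tg libraries, a log2 fold change of -0.53 ± 0.349 (SE). *cutl-16* (chromosome II, 6441428 to 6443994, plus strand) had 11.3, 10.3, 3.08 and 4.43 CPM in libraries labelled *smrd-1* null and 11.03, 12.6, 7.69 and 8.08 CPM in non-Tg libraries. In both genes replicates 3 and 4 of the *smrd-1* null label were the lowest of the 8 libraries. *cutl-25* (chromosome III, 3042593 to 3047140, minus strand) had 2.48, 1.86, 0.462 and 0.448 CPM in libraries labelled *smrd-1* null, with the highest and the lowest of all 8 values among them, and 1.80, 0.871, 1.14 and 1.75 CPM in non-Tg libraries. *cutl-14* (chromosome I, 10628743 to 10631674, plus strand), in contrast, had 4.46, 5.34, 5.19 and 5.65 CPM in libraries labelled *smrd-1* null and 4.10, 5.37, 5.47 and 7.49 CPM in non-Tg libraries, and its highest value was only 1.27 times the lowest within the *smrd-1* null label. The scarcest tested member was *cutl-7*, with 10, 5, 0 and 16 counts in libraries labelled *smrd-1* null and 4, 10, 14 and 12 in non-Tg libraries. Its 0 lies below the limit of 3 counts, which is 0.0385 CPM in that library. The untested *cutl-13* had 12, 8, 6 and 6 counts in libraries labelled *smrd-1* null and 1, 6, 6 and 6 in non-Tg libraries.

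The members varied more within groups than most genes did. The SD of log2 CPM within groups had a median of 0.683 over the 33 tested members and of 0.306 over all tested genes. It was above the median of all genes for 31 members, all but *cutl-14* and *cutl-21*, and above their upper quartile of 0.572 for 24. Among the 13932 genes averaging at least 1 CPM the contrast was similar, with a median of 0.683 for the 27 members and 0.252 for all, and with 21 members above the upper quartile of 0.464. No test was made of this difference, since genes are not replicates.

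This spread followed the replicate numbers in several distinct ways. In 10 members (*cutl-3*, *cutl-10*, *cutl-11*, *cutl-16*, *cutl-19*, *cutl-20*, *cutl-23*, *cutl-24*, *cutl-26* and *cutl-29*) replicates 1 and 2 were above replicates 3 and 4 in both groups, an order that 22.1% of all tested genes had. The opposite order in both groups was found in *cutl-8*, *cutl-15* and *cutl-27*, 3 members, and in 21.4% of all tested genes. In 5 members (*cut-6*, *cutl-6*, *cutl-9*, *cutl-22* and *cutl-28*) replicates 1 and 2 were above replicates 3 and 4 in the *smrd-1* null label and below them in non-Tg, an order that 3.64% of all tested genes had. Of the rest, 2 members were higher in replicates 1 and 2 of the *smrd-1* null label and mixed in non-Tg, 6 were lower there and mixed in non-Tg, 6 were mixed in the *smrd-1* null label and lower in replicates 1 and 2 of non-Tg, and *cutl-2* was mixed in both. For these mixed orders no share over all tested genes is given. Taken by group, replicates 1 and 2 of the *smrd-1* null label were above replicates 3 and 4 in 17 members and below in 9. Of all tested genes, 35.4% and 35.3% had these orders. In non-Tg it was 10 members above and 14 below, against 33.3% and 32.6% of all tested genes. Library non-Tg 2 was the highest of the 8 for 11 members and non-Tg 4 for 8, while *smrd-1* null 4 was the highest for 7. Library *smrd-1* null 3 was the lowest for 11. For these counts of highest and lowest libraries no share over all tested genes is given.

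**Figure D3:**
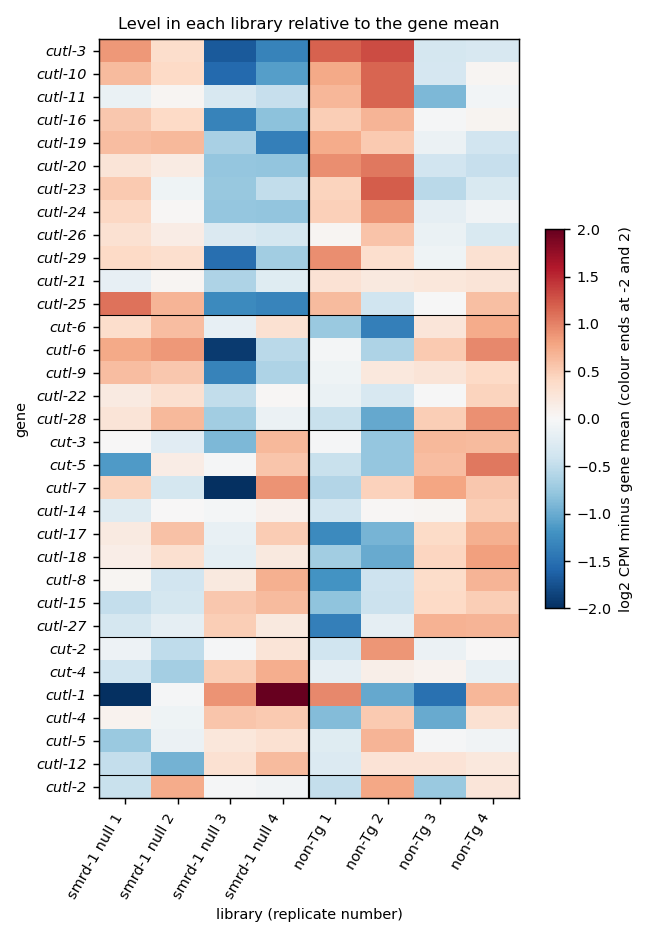
Log2 CPM of the 33 tested cuticlin and cuticlin-like genes in each library minus the mean of the gene, with rows grouped by the order of replicates 1 and 2 against 3 and 4 and the 4 smrd-1 null libraries left of the 4 non-Tg libraries. The first 10 genes are higher in replicates 1 and 2 of both groups, and the block of 5 genes from *cut-6* to *cutl-28* is higher in replicates 1 and 2 of the smrd-1 null label and lower in those of non-Tg.

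Because of this division, chosen after the values were known, the labelled groups were also compared within each set of replicates. Within replicates 1 and 2, edgeR called 1 of 32 members, *cutl-18*, which was higher in the libraries labelled *smrd-1* null (log2 fold change 1.07, adjusted p = 0.0410), where 1.62% of all tested genes were called and 1.01% as higher. The median log2 fold change was -0.01 for the members, with 16 above and 16 below 0, and -0.003 for all tested genes. Within replicates 3 and 4, edgeR called 11 of 33 members, where 12.2% of all tested genes were called. Of these, 1 member, *cut-4*, was higher and 10 were lower in the libraries labelled *smrd-1* null, where 6.62% of all tested genes were higher and 5.57% lower. The median was -0.43 for the members and -0.001 for all tested genes. The 10 lower members were *cutl-3*, *cutl-6*, *cutl-9*, *cutl-10*, *cutl-16*, *cutl-18*, *cutl-24*, *cutl-25*, *cutl-28* and *cutl-29*. Each of these fits has 2 libraries a group, so its spread was estimated from 4 libraries.

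The effects in the 2 sets had opposite signs in 20 members, with 14 above 0 in replicates 1 and 2 and below 0 in replicates 3 and 4, and 6 the other way round. In 10 members both were below 0 and in 2 both were above 0. For these counts of signs no share over all tested genes is given. The difference between the effects was tested as an interaction term in edgeR, which called 7 of 33 members and 4.16% of all tested genes. It was positive for *cut-4* and negative for *cut-6*, *cutl-6*, *cutl-9*, *cutl-17*, *cutl-18* and *cutl-28*, where 1.02% of all tested genes were called as positive and 3.14% as negative. *cutl-6* (chromosome I, 7065252 to 7068129, plus strand) had the most negative value, -2.97 ± 0.568 (SE; edgeR adjusted p = 0.0277). It was at 4.57, 4.89, 0.694 and 1.83 CPM in libraries labelled *smrd-1* null and at 2.60, 1.74, 3.87 and 5.25 CPM in non-Tg libraries. In the first 2 replicates the *smrd-1* null label was the higher one and in the last 2 the lower one, with replicate 3 of that label the lowest of the 8. *cutl-9* (chromosome II, 10622265 to 10625946, plus strand) had 5.23, 4.98, 1.34 and 2.22 CPM in libraries labelled *smrd-1* null and 3.21, 3.96, 4.08 and 4.50 CPM in non-Tg libraries. In libraries labelled *smrd-1* null the highest value of *cutl-9* was 3.91 times the lowest, and in non-Tg libraries 1.40 times. *cut-4* ran the other way, with a difference of 1.16 ± 0.214 (SE; edgeR adjusted p = 0.0241), and its effects were -0.52 in replicates 1 and 2 and 0.66 in replicates 3 and 4.

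With the replicate set as a covariate, 2 members were lower in the libraries labelled *smrd-1* null in edgeR, *cutl-3* (log2 fold change -0.88, adjusted p = 0.0318) and *cutl-20* (-0.57, adjusted p = 0.0324), where 5.53% of all tested genes were called, 2.67% as higher and 2.86% as lower. DESeq2 with that covariate called these and *cutl-10*, *cutl-16*, *cutl-24* and *cutl-29*, all lower and 6 in all, where it called 9.35% of genes and 4.10% as lower. All 6 belong to the 10 members that were higher in replicates 1 and 2 of both groups. The covariate takes up only set differences that run the same way in both groups, so this overlap is partly built into the fit.

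**Figure D4:**
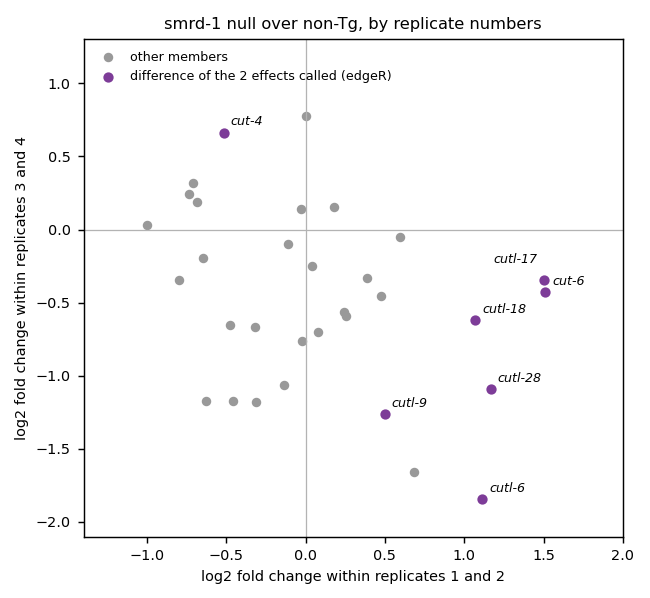
Log2 fold change, smrd-1 null over non-Tg, within replicates 3 and 4 (vertical axis) against that within replicates 1 and 2 (horizontal axis) for 32 cuticlin and cuticlin-like genes; *cutl-1* was not tested within replicates 1 and 2. Purple points mark the 7 genes whose difference of effects was called, 6 of them right of and below the zero lines and *cut-4* left of and above them.

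Markers of other cell types and of the adult stage also moved between libraries. The summed CPM of 5 sperm markers was 71.2, 81.0, 166 and 136 in libraries labelled *smrd-1* null and 61.9, 50.0, 117 and 107 in non-Tg libraries, with 5 of 5 markers above 0 in log2 fold change and none called. The 7 oocyte and yolk markers summed to 5713, 7310, 15325 and 10324 CPM in libraries labelled *smrd-1* null and to 5206, 2203, 5858 and 2835 CPM in non-Tg libraries, with 7 of 7 above 0. Both sums were thus highest in replicates 3 and 4 of the *smrd-1* null label. Most of the oocyte and yolk sum came from the yolk genes *vit-2*, *vit-5* and *vit-6*. They were at 5440, 3304 and 5734 CPM in *smrd-1* null replicate 3, while the oocyte gene *oma-2* was at 22.5 to 104 CPM over all libraries. The 7 matched seam and hypodermis markers, of the cells that make the cuticle, summed to 1150, 995, 335 and 427 CPM in libraries labelled *smrd-1* null and to 1391, 1795, 627 and 766 CPM in non-Tg libraries, with 6 of 7 below 0. Single genes weigh heavily in that sum, as *col-10* alone was at 972 and 1428 CPM in non-Tg replicates 1 and 2. In contrast, *lin-26* stayed between 55.6 and 76.1 CPM over all libraries. The 4 markers of glia and socket cells, which also make apical matrix, summed to 28.1, 27.0, 17.4 and 21.3 CPM in libraries labelled *smrd-1* null and to 34.8, 30.8, 26.2 and 28.8 CPM in non-Tg libraries, with 3 of 4 below 0. Most of this sum was *fig-1*, at 12.3 to 28.3 CPM. Over these 4 lists edgeR without covariates called 0 genes, where 0.155% of all tested genes were called. An unadjusted p under 0.05 in edgeR was reached by 5 oocyte and yolk markers and 1 seam and hypodermis marker, against 7.74% of all tested genes. DESeq2 called 1 oocyte and yolk marker higher and 1 seam and hypodermis marker lower, where it called 0.992% of genes in either direction. Each marker had counts in every library. Within replicates 3 and 4, edgeR called 6 oocyte and yolk and 2 sperm markers higher, and 4 seam and hypodermis markers and 1 glia marker lower, in the libraries labelled *smrd-1* null, where 6.62% of all tested genes were called higher and 5.57% lower. Within replicates 1 and 2 the only marker called was *wrt-2* of the seam and hypodermis list. It was higher there, with a log2 fold change of 1.25, where 1.01% of all tested genes were called higher. The same gene was among those called lower within replicates 3 and 4, at -1.35. With the replicate set as covariate, edgeR called 1 sperm marker higher and 2 seam and hypodermis markers lower, where 2.67% of all tested genes were higher and 2.86% lower. In RNA of whole animals, fewer cells of a type, less RNA per cell and another stage of the animals cannot be told apart.

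The members were also read in the order of the libraries by the sperm sum, which was non-Tg 2 and 1, *smrd-1* null 1 and 2, non-Tg 4 and 3, and *smrd-1* null 4 and 3. *cutl-3* and *cutl-10* decreased at every step of that order, 2 of 33 members, as 1.06% of all tested genes did, and 0 members and 1.43% of all tested genes increased at every step. *cutl-20* had a similar course, with its highest values in non-Tg 2 and 1 and its lowest in *smrd-1* null 4 and 3. *cutl-18* and *cutl-28* were lowest in non-Tg 2 and highest in non-Tg 4, in the middle of the order, and were lower again in *smrd-1* null 4 and 3. *cutl-15* was high in all 4 libraries with the larger sums. The part of these marker differences in the results on the cuticlin genes was not tested.

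**Figure D5:**
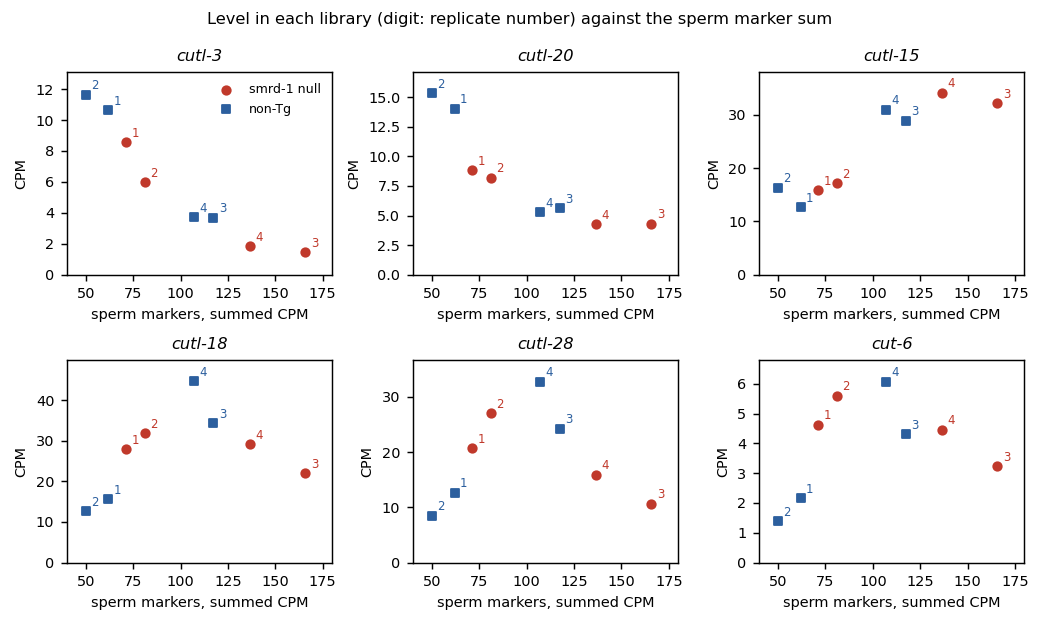
CPM of 6 cuticlin and cuticlin-like genes in each library against the summed CPM of 5 sperm markers in the same library, with red circles for smrd-1 null, blue squares for non-Tg and the replicate number beside each point. *cutl-3* and *cutl-20* are highest at the low end of the sums, *cutl-18* and *cutl-28* are highest in non-Tg 4 at 107 CPM, and *cutl-15* is high in the 4 libraries above 100 CPM.

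Other genes of the cuticle were followed in 5 lists: further ZP-domain genes, genes for tyrosine cross-linking, for processing of cuticle proteins and for the molting cycle, and adult cuticle collagens. No gene of these lists was called by edgeR or by DESeq2 over the 8 libraries without covariates. An unadjusted p under 0.05 in edgeR was reached by 1 of them, *col-19*, against 7.74% of all tested genes. With the replicate set as covariate, edgeR called 1 molting cycle regulator lower, where 2.86% of all tested genes were lower. The ZP-domain list held *fbn-1*, *let-653*, *noah-1*, *noah-2*, *dyf-7* and *ram-5*, with 5 of 6 below 0 and a median of -0.32 on the log2 scale. *noah-1*, which encodes a component of the transient matrix that precedes a new cuticle, had 774, 871, 173 and 284 CPM in libraries labelled *smrd-1* null and 647, 489, 670 and 843 CPM in non-Tg libraries. *fbn-1*, which encodes a fibrillin-like matrix protein, had 421, 330, 14.7 and 32.4 CPM in libraries labelled *smrd-1* null and 579, 475, 166 and 194 CPM in non-Tg libraries. Both were lowest in replicates 3 and 4 of the *smrd-1* null label. Within replicates 3 and 4, edgeR called 4 of these 6 genes, all lower (*fbn-1*, *let-653*, *noah-1* and *noah-2*; 5.57% of all tested genes), and within replicates 1 and 2 it called 0.

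Of the 8 genes for tyrosine cross-linking, which include the dual oxidase gene *bli-3* and the peroxidase genes *mlt-7* and *skpo-1*, 3 were above and 5 below 0 and the median was -0.13. *skpo-1* had the largest value, 1.09 ± 0.481 (SE; edgeR adjusted p = 0.639), with 24.7, 25.6, 87.0 and 61.2 CPM in libraries labelled *smrd-1* null and 24.0, 11.7, 37.3 and 19.9 CPM in non-Tg libraries. Replicate 3 of the *smrd-1* null label was the highest of the 8 and non-Tg replicate 2 the lowest. Within replicates 3 and 4, *skpo-1* and *skpo-3*, 2 of 8, were called higher (6.62% of all tested genes). *bli-3* was nearly flat, between 46.5 and 59.7 CPM over all libraries.

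The 8 genes for processing of cuticle proteins, such as the proprotein convertase gene *bli-4* and the collagen prolyl hydroxylase genes *dpy-18* and *phy-2*, had a median of -0.04 with 3 above and 5 below 0. Within replicates 3 and 4, edgeR called 2 of them lower (5.57% of all tested genes) and within replicates 1 and 2 it called *phy-2* higher (1.01%). The 9 regulators of the molting cycle, among them the nuclear receptor genes *nhr-23* and *nhr-25* and the period-like gene *lin-42*, had a median of -0.24 with 2 above and 7 below 0. In replicates 3 and 4, 4 of the 9 were called lower (5.57% of all tested genes), and in replicates 1 and 2 *lin-42* was called higher (1.01%). The 7 collagens of the adult cuticle had a median of 0.28 with 6 above and 1 below 0, and 3 were called higher (*col-7*, *col-19* and *col-62*) and 1 lower (*bli-1*) within replicates 3 and 4, against 6.62% and 5.57% of all tested genes, while *bli-2* was called higher within replicates 1 and 2 (1.01%).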

How the data were processed

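Polyadenylated RNA from 8 whole-animal libraries was analysed, 4 labelled *smrd-1* null and 4 labelled as control (N2, non-Tg). The authors aligned the reads to WBcel235 with STAR and counted them per gene using featureCounts 2.0.1. The deposited values are raw, unnormalized counts. Its header names annotation release 112, while the methods name another release. Each mate was counted on its own, without regard to strand, and reads that mapped to several places or overlapped several genes were left out. Positions and exons came from release 115. The authors' table of DESeq2 results was used only to pair gene IDs with symbols, and its fold changes, p-values and mean counts were not used.

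Counts were tested with edgeR 4.0.16 (quasi-likelihood, TMM, filterByExpr by group, Benjamini-Hochberg over 16808 genes, call at an adjusted p of at most 0.05) in R 4.3.3, with DESeq2 1.42.0 as alternative and limma 3.58.1 loaded by edgeR. Tables and figures were made in Python 3.11.15 with pandas 2.3.3, matplotlib 3.10.9, numpy 2.4.6 and scipy 1.17.1. CPM was scaled by TMM, and the log2 CPM of the heat map and of the within-group SD used a prior count of 2. Standard errors were obtained from each fold change and its F statistic. Floors of 3 counts cover counting error only. As each mate was counted on its own, a fragment can add 2 counts, which these floors do not take into account. The script was tested on simulated counts. These had the same spread setting for all genes and no division by replicate numbers, so that test does not cover those features of the data.

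The replicate numbers were checked as pairs across genes: same-numbered libraries correlated at 0.357, 0.221, 0.489 and 0.390 in their deviations from the group means, so the replicate block was run as a paired alternative. The pairing is a hint from the data alone. Of the libraries labelled *smrd-1* null, only replicate 3 correlated best with its own number in non-Tg. Of the non-Tg libraries, replicates 1, 3 and 4 correlated best with their own number in the *smrd-1* null label, and replicate 2 did not.

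The members, the 5 cuticle lists and the 4 marker lists (seam and hypodermis, oocyte and yolk, sperm, glia and socket cells) were chosen with earlier results of these data known. Of the markers, *elt-5* was not matched by symbol. Genes named with values in every library were members called by edgeR, the 6 most abundant per kb, the 5 largest and 5 smallest log2 fold changes, *cut-1* to *cut-6* and members whose groups did not overlap, and further ones are said to be chosen after their values were seen. Alternatives were DESeq2, its size factors within edgeR, a filter of only 1 count, a minimum of 10 counts per library, the replicate block and leaving out single libraries. Added later, with values known, were the replicate set (1 and 2 against 3 and 4) as covariate, each set alone, and the interaction.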

Additional observations from a re-analysis of the deposited data

Results flagged for a closer look

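*cutl-12* was at 1.92 CPM in non-Tg replicate 1, far below the other non-Tg libraries, and the gap took 0.856 of the range of the group. Among the 66 groups examined in this way, about 1 in 20 is expected to stand out by chance.

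In 7 members the effect of the *smrd-1* null label differed between the replicate sets by the interaction term in edgeR, given here as the log2 fold change within replicates 3 and 4 minus that within replicates 1 and 2. The difference was 1.16 for *cut-4* (adjusted p = 0.0241), -1.95 for *cut-6* (adjusted p = 0.0338) and -2.97 for *cutl-6* (adjusted p = 0.0277). It was -1.78 for *cutl-9* (adjusted p = 0.0312), -1.86 for *cutl-17* (adjusted p = 0.0468), -1.70 for *cutl-18* (adjusted p = 0.0135) and -2.28 for *cutl-28* (adjusted p = 0.0169). The sets were read from the values of all genes and are not groups of the study.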

How the results depend on the processing

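No member was called under DESeq2, DESeq2 size factors in edgeR, either count filter, the replicate block or any left-out library. Members called rose to 2 with the replicate set as covariate, 6 in DESeq2 with that covariate, 1 within replicates 1 and 2, and 11 within replicates 3 and 4. The median log2 fold change of the members was -0.43 within replicates 3 and 4 and lay between -0.27 and -0.05 with single libraries left out. Over all genes, 26 were called by edgeR and 26 with the replicate block, 251 by DESeq2, 929 with the covariate, 2364 by DESeq2 with it, 273 within replicates 1 and 2, 2078 within replicates 3 and 4, and 7 to 14 with single libraries left out, and the cause was not tested.

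Among the genes named by rule, directions turned as follows. Within replicates 3 and 4 the log2 fold change was 0.19 for *cut-2*, -0.43 for *cut-6*, 0.031 for *cutl-11*, -0.34 for *cutl-17* and -0.62 for *cutl-18*. Within replicates 1 and 2 it was 0.26 for *cut-3*, -0.52 for *cut-4*, 0.24 for *cut-5* and 1.17 for *cutl-28*. *cutl-28* was at 0.021 with the replicate block, 0.033 with the covariate and 0.040 in DESeq2 with it. Of the other members, 7 turned within replicates 1 and 2 (such as *cutl-6* at 1.11), 4 within replicates 3 and 4 (such as *cutl-5* at 0.32) and *cutl-27* with the replicate block and the covariate. The replicate block changed no call of a member. With single libraries left out, *cut-2* ranged from -0.40 to 0.094, *cut-4* from -0.076 to 0.38, *cut-5* from -0.56 to 0.077, *cutl-1* from -0.11 to 1.43, *cutl-15* from -0.039 to 0.37, *cutl-18* from -0.18 to 0.41 and *cutl-28* from -0.32 to 0.30. Depth limits *cut-1*, *cutl-1*, *cutl-7* and *cutl-13*, which had single libraries at or under 3 counts. The filter of 10 counts in every library left *cutl-1* and *cutl-7* untested.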
